A study of Mus musculus with 2 samples.

Results

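The Vcam1-high C1q macrophages were 479 of the 6363 cells kept from AT3 tumors, 264 of 3565 in the WT library and 215 of 2798 in the 6PGDKO library. They were chosen cell by cell from raw counts of unique molecular identifiers (UMIs, tags that each mark 1 captured RNA molecule). A kept cell had 500 to 7500 detected genes and at most 15% mitochondrial UMIs. A member also had at least 30 UMIs of C1qa, C1qb and C1qc together, at most 1 of Cd3d, Cd3e and Cd3g, fewer than 10 of Gpnmb, at most 2 of Mki67 and Top2a, and at least 5 of Vcam1. Levels of these genes are therefore given as a description. Cells that met every other condition but had fewer than 5 Vcam1 UMIs are called Vcam1-low cells. They numbered 246 in WT and 238 in 6PGDKO and served as the comparison. T cells were kept cells with at least 3 UMIs of Cd3d, Cd3e and Cd3g together. They also had at most 2 of C1qa, C1qb and C1qc together.

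AT3, a mouse mammary tumor line, was injected into the mammary fat pad of female mice aged 6 to 12 weeks, and tumors were taken on day 30. The WT library came from Pgd fl/fl mice, which carry loxP-flanked Pgd alleles and no Cre, and the 6PGDKO library from Pgd fl/fl LysM Cre mice, which carry the same alleles and express Cre from the Lyz2 locus in macrophages, monocytes and neutrophils. Each library pooled the tumors of 10 mice, and both suspensions were tagged with different oligonucleotides and loaded on the droplet instrument together. The labels name a CD45+ sort in one sentence and a live-CD11b+ sort in another, and T cells made up 47.7% of kept WT cells and 38.8% of kept 6PGDKO cells. Each genotype being represented by a single library, no test was possible, and genotype, mouse pool and tag cannot be told apart. Intervals are exact 95% intervals that cover counting error only.

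C1q is the recognition part of the classical complement pathway, built from the A, B and C chains encoded by the neighbouring genes C1qa, C1qb and C1qc, and tissue macrophages are a main source of it. VCAM-1 is an adhesion molecule of the immunoglobulin family that binds the integrin VLA-4 (Itga4 with Itgb1) on leukocytes, and it also marks some macrophages of tumors, spleen and bone marrow. Pgd encodes 6-phosphogluconate dehydrogenase, an enzyme of the oxidative branch of the pentose phosphate pathway, which makes NADPH and ribose phosphate from glucose.

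Among the genes that define the cells, RefSeq promoter windows (300 bases around the start site, build GRCm38.p6) were matched for C1qb, C1qc and Ms4a7. The C1qb and C1qc windows are shown because these neighbouring genes carry the definition of the cells and were detected in every member. C1qb lies on the minus strand at chr4:136886151-136886450 and C1qc on the minus strand at chr4:136892865-136893164. Both are written 5' to 3' on the strand of the gene, with capitals marking matches to GAGGAA (the PU.1 core), TGCTGA (an arm of the MAF recognition element), TGANTCA (AP-1) or the NF-kB consensus, searched on both strands.
C1qb: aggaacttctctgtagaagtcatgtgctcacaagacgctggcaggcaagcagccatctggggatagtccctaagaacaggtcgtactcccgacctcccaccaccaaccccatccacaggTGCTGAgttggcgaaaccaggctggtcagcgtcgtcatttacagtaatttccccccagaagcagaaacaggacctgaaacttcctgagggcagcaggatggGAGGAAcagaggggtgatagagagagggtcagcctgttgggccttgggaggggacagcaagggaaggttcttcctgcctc
C1qc: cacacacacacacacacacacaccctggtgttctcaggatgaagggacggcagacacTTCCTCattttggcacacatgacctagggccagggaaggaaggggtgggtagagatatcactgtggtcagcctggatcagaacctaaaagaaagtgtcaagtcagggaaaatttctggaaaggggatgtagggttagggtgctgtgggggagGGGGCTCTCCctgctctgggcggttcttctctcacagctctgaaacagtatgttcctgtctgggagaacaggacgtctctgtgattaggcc
In C1qb the GAGGAA match started at position -30 and the TGCTGA match at -131 from the start site. In C1qc the GAGGAA match lay at -193 on the opposite strand, where it reads TTCCTC, and the NF-kB match at -41. Of 32851 windows of this length, 28.3% held GAGGAA, 19.5% TGCTGA, 7.81% TGANTCA and 4.51% the NF-kB consensus, so these matches are a description and not evidence of binding.

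Members carried a median of 12286.5 UMIs in WT (range 2027 to 34238) and 12736 in 6PGDKO (2710 to 25712), and their summed UMIs were 3370255 and 2808247. Gene levels below are given as CPM, the UMIs of a gene over the cells of a group in a library, scaled to a common total. No barcode was shared by both libraries, and the library's own tag was the largest in all 264 WT and all 215 6PGDKO members. The suspensions were loaded together and told apart by tag, so these values describe the assignment and do not check it. No doublet caller was applied. Results were instead recomputed without the deepest 5% of cells and without cells holding lymphocyte UMIs. Lymphocyte UMIs here are those of Cd3d, Cd3e, Cd3g, Cd79a, Cd79b, Ms4a1 and Nkg7. Cells with UMIs of other lymphocyte genes were not left out by this step. Among WT members, 2 cells held 26738 of the 27344 immunoglobulin UMIs (97.8%), and values that depend on them are given with and without them.

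The members carried a macrophage profile. The summed level of 6 macrophage markers (Adgre1, Csf1r, Fcgr1, Mertk, Cd68 and Apoe) was 22363.3 CPM in WT and 24247.2 in 6PGDKO members, against 144.9 and 205.2 in T cells. All 6 were detected in both libraries, and Apoe alone made up 20766.1 and 22615.5 CPM of the sum in members. The 4 T cell genes outside the rule (Cd2, Trac, Trbc2, Lck) summed to 18.4 and 17.8 CPM, against 2284.9 and 2067.9 in T cells. Members and T cells were chosen by opposite limits on the C1q and Cd3 genes, so these contrasts are a description. Short marker sets of other lineages were at lower sums than the macrophage markers. Monocyte markers (Ly6c2, Chil3, Plac8, Ccr2) summed to 92.9 and 45.2 CPM, neutrophil markers (S100a8, S100a9, Retnlg, Csf3r) to 83.1 and 63.7, and B cell markers (Cd79a, Cd79b, Ms4a1) to 32.0 and 10.7. Dendritic cell markers summed to 37.7 and 11, NK cell markers to 15.1 and 26.7, and epithelial markers to 28.5 and 8.19. Endothelial, fibroblast and mast cell markers each summed to less than 10 CPM in both libraries. Longer lists gave higher sums, 471.8 and 381.7 CPM for 11 monocyte genes, 253.7 and 263.9 for 15 T cell genes, 115.1 and 50.9 for 11 dendritic cell genes, and 6122.1 and 115.0 for 10 B cell genes, of which Igkc was 4845.0 and 30.3 and Ighm 1208.8 and 61.2. Nr4a1, an immediate early gene, made up 371.8 and 316.6 CPM of the monocyte sum, and Il7r 168.5 and 194.8 of the T cell sum. A UMI of the monocyte list was found in 82.2% and 77.7% of members, and 52 and 36 members held at least 10. The endothelial gene Cldn5 and the mast cell genes Cpa3 and Ms4a2 had no UMI in members of either library, where 3 counts would correspond to 0.890 CPM in WT and 1.07 in 6PGDKO.

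Vcam1 counts ran on from the low to the high cells without a gap. Members held a median of 12 Vcam1 UMIs in WT (5 to 76) and 11 in 6PGDKO (5 to 61), whereas 93 WT and 136 6PGDKO C1q macrophages held none. The members were 51.8% of WT C1q macrophages (264 of 510, Clopper-Pearson interval 47.3 to 56.2) and 47.5% of those in 6PGDKO (215 of 453, 42.8 to 52.2). Cells just outside the threshold, with 3 or 4 Vcam1 UMIs (61 in WT, 45 in 6PGDKO), carried 350.5 and 336.9 CPM of Vcam1. Cells just inside, with 5 or 6 (50 and 44), carried 492.4 and 433.3. Il1a, which encodes interleukin-1 alpha, stood at 78.1 and 84.7 CPM just outside and 114.6 and 121.3 just inside. Spic, a transcription factor gene, and Cd38, an ectoenzyme gene, went the other way in both libraries. Spic stood at 14.9 and 55.1 CPM just outside and 5.37 and 10.7 just inside. Cd38 stood at 16.6 and 16.9 outside and 7.16 and 16.0 inside. Mmp2, a gelatinase gene, was mixed, at 54.8 and 95.3 outside and 43.0 and 110.6 inside. Tgfb3 stood at 68.1 and 38.1 outside and 60.9 and 46.4 inside, so the edge did not separate this gene the same way in both libraries.

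**Figure D1:**
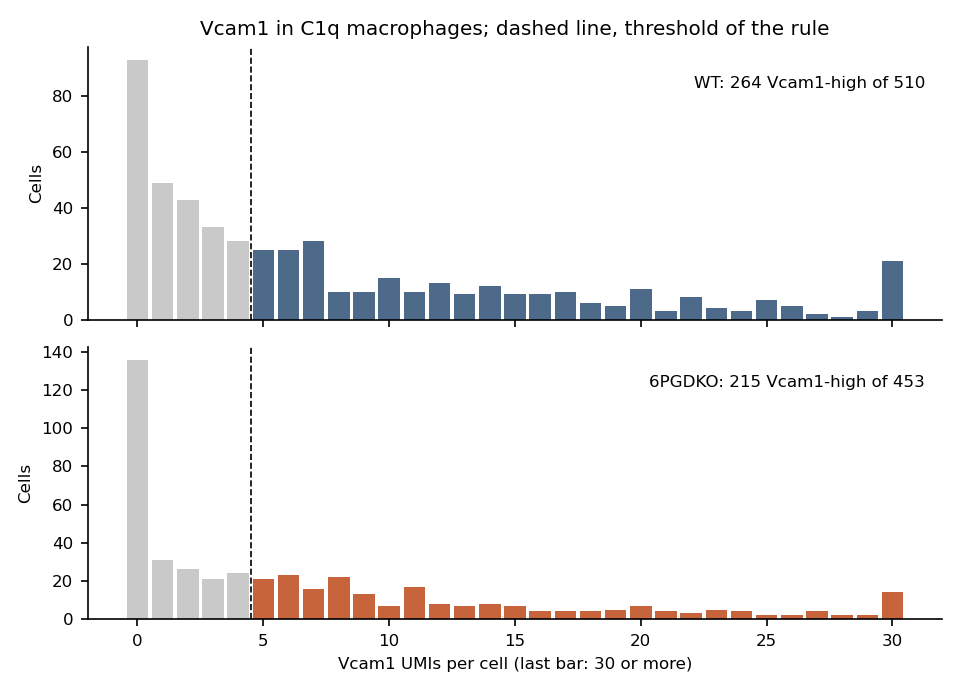
Vcam1 UMIs per C1q macrophage (x axis, the last bar gathers 30 or more) against number of cells (y axis) in WT and 6PGDKO, with the dashed line at the threshold of 5. The counts fall off without a gap at the threshold, which leaves 264 of 510 WT cells and 215 of 453 6PGDKO cells on the high side.

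Of the 4 genes that name the population, Vcam1 and Tgfb3 set members apart from Vcam1-low cells most, whereas C1qc and Ms4a7 were shared by both. Vcam1 (chr3:116110020-116129688, GRCm38.p6) was at 1183.0 CPM in WT and 1066.1 in 6PGDKO members, against 143.3 and 89.5 in Vcam1-low cells. C1qc was at 3810.1 and 3475.5 CPM in members and 3381.5 and 2469.3 in Vcam1-low cells. Ms4a7 (chr19:11321039-11336146), a membrane protein gene of the MS4A family that marks macrophages over monocytes, was at 1096.4 and 1153.7 in members and 918.1 and 788.1 in Vcam1-low cells. These differences were under 1.5-fold in both libraries for C1qc and Ms4a7. Tgfb3 (chr12:86056743-86079041), which encodes transforming growth factor beta 3, was at 79.2 and 62.7 CPM in members and 43.1 and 32.9 in Vcam1-low cells, a log2 difference of 0.88 (0.55 to 1.22) in WT and 0.93 (0.55 to 1.31) in 6PGDKO. A Tgfb3 UMI was found in 47.3% of WT and 35.3% of 6PGDKO members, in 22% and 18.9% of Vcam1-low cells, and in 1.53% and 2.48% of T cells (median UMIs 5095.5 and 5847). After every cell was thinned to 5000 UMIs, the shares were 28.5% and 19.9% in members, 17.4% and 11.9% in Vcam1-low cells, and 1.14% and 1.56% in T cells. Thinning left out 11 and 9 members, 51 and 28 Vcam1-low cells, and 822 and 448 T cells.

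Across genes, the members held more Il1a, Il10, Mmp2, Spic and Cd38 than Vcam1-low cells, and less Fn1, S100a4, S100a6 and Ccr2. Of 7154 genes with at least 50 UMIs in each library, 107 (1.5%) were at least 1.5-fold higher in members in both libraries and 98 (1.37%) at least 1.5-fold lower. The median log2 difference was 0.04 in each library. Because the groups were cut on Vcam1 within the same cells, these values are a description. The members were also deeper, with median UMIs of 12286.5 and 12736 against 9215 and 11131 in Vcam1-low cells.

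Secreted mediators were among the genes highest in members. Il1a was at 177.7 CPM in WT and 210.1 in 6PGDKO members, against 76.6 and 57.3 in Vcam1-low cells, log2 differences of 1.21 (0.97 to 1.46) and 1.87 (1.62 to 2.14). Il10, the gene of the anti-inflammatory cytokine interleukin-10, was at 48.4 and 41.0 CPM against 12 and 19.6, log2 differences of 2.01 and 1.06. Both cytokines were thus higher in members of both libraries. The Il10 difference ranged from 1.63 to 2.35 in WT and from 0.36 after thinning to 2.71 without the 5 top cells in 6PGDKO. Mmp2, a gelatinase gene, was at 84.6 and 127.8 CPM in members against 37.7 and 39.6, log2 differences of 1.17 and 1.69. Npnt, which encodes the matrix protein nephronectin, was at 31.2 and 23.1 CPM against 12.4 and 7.77. Slpi, a secreted protease inhibitor gene, was 1.98 and 2.59 higher on the log2 scale, but 5 cells held 93.3% of its UMIs in WT and 92.0% in 6PGDKO members, and the WT difference was -1.02 without the cells rich in immunoglobulin UMIs.

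Among regulators and surface proteins, Spic, a transcription factor gene of iron-recycling macrophages, was at 43.9 CPM in WT and 43.1 in 6PGDKO members, against 12.4 and 15.2 in Vcam1-low cells. Cd38, the gene of an NAD-degrading ectoenzyme, was at 27.3 and 34.9 CPM against 11.2 and 10.4, log2 differences of 1.29 (0.65 to 1.96) and 1.75 (1.13 to 2.41). Smad3, a transducer of TGF-beta signals, was at 12.2 and 17.8 CPM against 4.56 and 8.14. All 3 genes were higher in members of both libraries. The potassium channel gene Kcnj10 differed by 1.17 and 1.21, the kinase gene Eef2k by 1.38 and 1.17, the receptor gene Gpr31b by 1.08 and 1.63, Pgap1 by 1.55 and 1.33, Ttc28 by 1.20 and 1.08 and Cactin by 1.22 and 1.07 on the log2 scale. Apart from Slpi, the direction of these genes held in both libraries under every alternative choice of cells and scaling that was tried, but the size did not. With at least 10 Vcam1 UMIs the difference fell to 0.25 for Eef2k and 0.33 for Gpr31b in WT, and to 0.12 for Cactin and 0.41 for Ttc28 in 6PGDKO. After thinning it was 0.53 for Smad3 in WT and 0.31 for Eef2k in 6PGDKO.

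**Figure D2:**
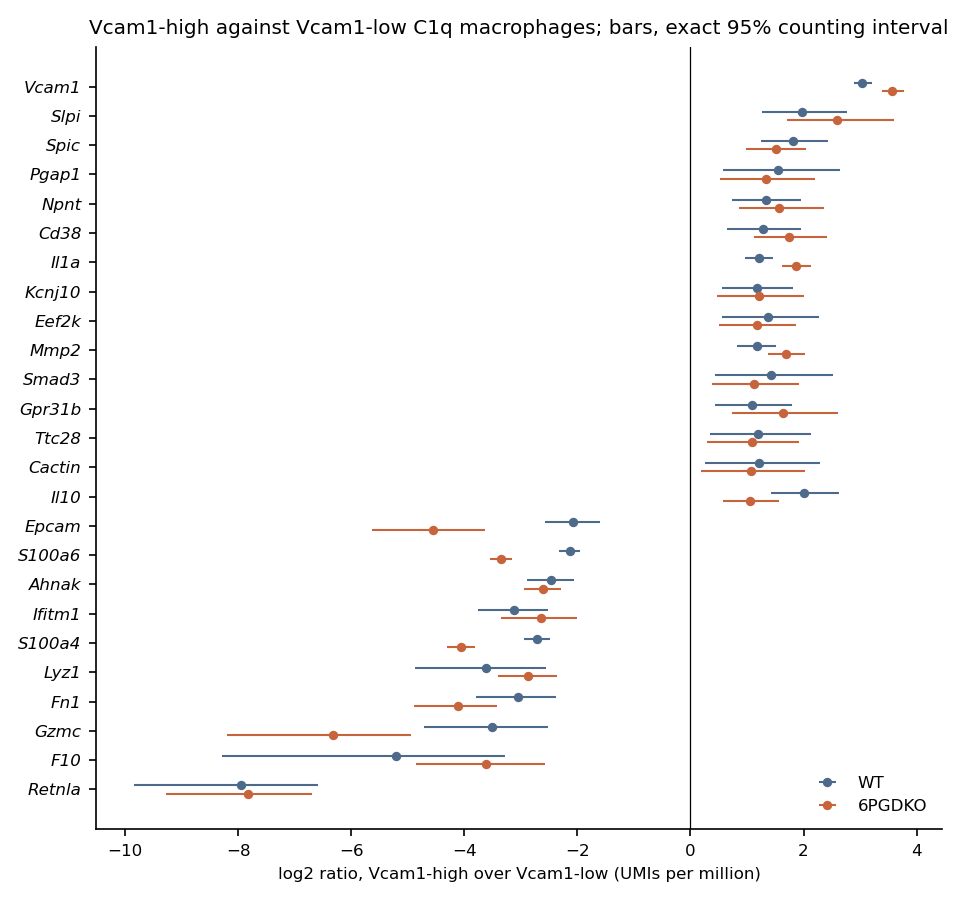
Log2 ratio of CPM in Vcam1-high over Vcam1-low C1q macrophages (x axis) for the 15 highest and 10 lowest genes, with WT and 6PGDKO as separate points and bars for the exact 95% counting intervals. Vcam1, at 3.04 and 3.57, was used to cut the groups, and Retnla, at -7.96 and -7.83, lies farthest on the low side.

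The genes lower in members included several that are abundant in monocytes. Fn1, the fibronectin gene, was at 6.23 CPM in WT and 6.41 in 6PGDKO members against 51.8 and 111.4 in Vcam1-low cells, log2 differences of -3.06 and -4.12. S100a4 was at 59.9 and 51.6 CPM against 393.2 and 862.8, and S100a6 at 90.5 and 86.5 against 397.7 and 881.3. Both encode small calcium-binding proteins, and both were further apart in 6PGDKO than in WT. Ccr2, the receptor that brings monocytes into tissue, was at 18.1 and 16.0 CPM against 68.4 and 125.8. Ahnak differed by -2.47 and -2.61, Ifitm1 by -3.12 and -2.65, and the coagulation factor gene F10 by -5.21 (-8.29 to -3.29, with 2 UMIs in WT members) and -3.61 (-4.86 to -2.57). Retnla, a gene of alternative activation, had 4 UMIs in WT and 6 in 6PGDKO members and stood at 294.6 and 485.0 CPM in Vcam1-low cells, but only 1.63% and 5.04% of the Vcam1-low cells held a UMI of it, beside 1.35% and 2.21% of T cells. Lyz1, a lysozyme gene, the granzyme gene Gzmc and Epcam, an epithelial gene, differed by -3.61, -3.52 and -2.08 in WT and by -2.87, -6.32 and -4.55 in 6PGDKO. In WT, Lyz1 was 1.10 higher in members without the 5 top cells, and Gzmc 0.15 higher without cells holding lymphocyte UMIs.

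Markers of other cells moved with this comparison. The 4 monocyte markers summed to 92.9 and 45.2 CPM in members and to 188.9 and 453.2 in Vcam1-low cells. Over the list of 11 monocyte genes, the sums were 471.8 and 381.7 CPM in members and 513.3 and 749.6 in Vcam1-low cells, and Nr4a1 went the other way, at 371.8 and 316.6 against 304.9 and 268.2. The 3 epithelial markers (Krt8, Krt18, Epcam) summed to 28.5 and 8.19 CPM in members and 75.8 and 190.2 in Vcam1-low cells. The 11 dendritic cell genes summed to 115.1 and 50.9 CPM in members and 142.5 and 187.2 in Vcam1-low cells. For 8 mast cell genes the sums were 17.2 and 12.5 against 27.3 and 76.2. Those of 9 neutrophil genes went opposite ways, at 86.3 and 65.9 against 152.5 and 38.5. The part of these cells in the differences was not tested.

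By function, the medians of matrix proteases, inflammatory mediators and genes of lipid-associated macrophages lay above that of all genes in members, and those of respiratory chain genes and of cholesterol and fatty acid synthesis lay below. Of 9 measured matrix metalloproteinase genes and inhibitors, 3 were past 1.5-fold higher (against 1.5% of all genes) and none lower, with list medians of 0.54 in WT and 0.37 in 6PGDKO against 0.04 over all genes tested. Beside Mmp2 these were the collagenase gene Mmp13 (0.61 and 1.00) and Adamdec1 (0.69 and 1.52). Of 19 inflammatory mediators, 2 were past the fold (Il1a and Il10), 15 lay above 0 in both libraries (against 36.9% of all genes), and the medians were 0.34 and 0.45. Of 21 genes of lipid-associated macrophages, 2 were higher (Gpnmb, which the rule capped, and the lysosomal protease gene Ctsd) and 1 was lower (Spp1, at -0.69 and -0.89), with medians of 0.33 and 0.41. Lysosomal genes had medians of 0.27 and 0.37 over 23 genes, and iron and heme genes 0.26 and 0.35 over 11, where Spic and the metal transporter gene Slc11a1 (0.77 and 0.74) were past the fold. Of 18 TGF-beta pathway genes none was past the fold lower, Tgfb3 and Smad3 were among those higher, and the medians were 0.26 and 0.14. The 25 nuclear subunits of oxidative phosphorylation had medians of -0.21 and -0.24, with 22 below 0 in both libraries (against 27.7% of all genes) and none past the fold. Cholesterol and fatty acid synthesis lay at -0.22 and -0.36 over 13 genes, with 1 gene, Sqle, past the fold lower. Of 18 chemokines, 2, Ccl8 (1.46 and 0.89) and Cxcl1 (1.96 and 1.02), were past the fold higher in members. Another 2, Ccl6 (-0.72 and -1.24) and Ccl22 (-1.11 and -2.42), were lower. Beside each count of this paragraph, 1.5% of all genes tested were past the fold higher in both libraries and 1.37% lower.

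Of the integrin chains that bind VCAM-1, Itga9 was higher in members, whereas Itga4 and Itgb1 lay near equal levels in both groups. Itga4, which encodes the alpha chain of VLA-4, was at 50.7 CPM in WT and 44.9 in 6PGDKO members against 45.6 and 48.8 in Vcam1-low cells, and its intervals spanned 0 in both libraries (0.15, -0.20 to 0.51, and -0.12, -0.49 to 0.24). Itgb1, its partner, was at 169.4 and 198.3 CPM against 174.4 and 185.7. Itga9, the gene of another VCAM-1 receptor chain, was at 67.4 and 52.3 CPM against 43.9 and 28.9, log2 differences of 0.62 (0.28 to 0.96) and 0.86 (0.45 to 1.27). Mertk, a receptor for dying cells, differed by 0.62 and 1.38, and Mfge8, a bridging molecule for dying cells, by -1.34 and -2.48.

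Within the members, cells were ranked by Vcam1 per 10000 UMIs and split into tertiles of 88 cells in WT and of 72, 72 and 71 in 6PGDKO. Vcam1 was at 504.1, 1065.7 and 2308.9 CPM from the lowest to the highest tertile in WT and at 463.3, 914.6 and 2085.0 in 6PGDKO. C1qa, a gene of the selection rule, was at 5628.3, 6571.2 and 5975.3 CPM in WT and 5463.4, 5935.7 and 5376.9 in 6PGDKO. Ms4a7 was at 1007.4, 1199.7 and 1087.1 CPM in WT and 1181.1, 1149.8 and 1120.8 in 6PGDKO. Tgfb3 was at 70.0, 73.4 and 100.1 CPM in WT and 44.6, 50.4 and 102.7 in 6PGDKO. Cd38 was at 14.8, 21.1 and 53.4 in WT and 26.0, 30.5 and 52.6 in 6PGDKO. Both were ordered the same way in each library, with the widest step between the middle and the highest tertile. Il1a was at 157.9, 134.1 and 263.7 CPM in WT and 155.1, 179.6 and 323.5 in 6PGDKO, and Mmp2 at 73.9, 87.7 and 95.7 in WT and 110.5, 140.7 and 136.1 in 6PGDKO. Il10 went opposite ways between the lowest and highest tertiles, at 31.9, 32.0 and 93.5 CPM in WT and 38.1, 52.5 and 30.8 in 6PGDKO. S100a6 was at 168.8, 59.0 and 20.0 CPM in WT and 166.2, 41.0 and 32.1 in 6PGDKO. Of the 14 genes other than Vcam1 that were highest in members, the highest tertile lay above the lowest for 12 in WT and 8 in 6PGDKO, and of the 10 lowest it lay below for 6 and 7. Markers of other cells moved with this ranking. Ly6c2 was at 113.6, 1.69 and 3.34 CPM in WT and 20.4, 2.10 and 7.70 in 6PGDKO, and Plac8 at 66.1, 6.74 and 5.56 in WT and 32.5, 7.35 and 2.57 in 6PGDKO. Epcam was at 29.6, 7.59 and 2.23 CPM in WT and 2.79, 1.05 and 7.70 in 6PGDKO. Depth moved too, from median UMIs of 13662.5, 13337 and 9698 in WT and 14901.5, 12946.5 and 11398 in 6PGDKO. The part of these markers and of depth was not tested.

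**Figure D3:**
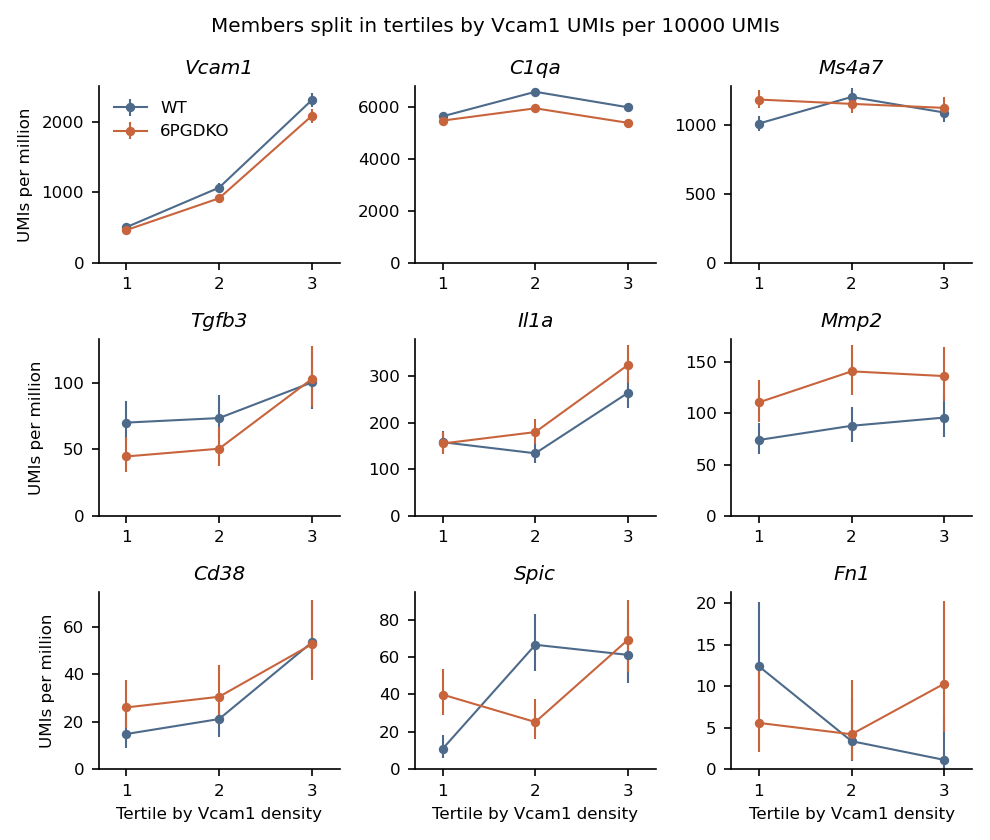
CPM (y axis) of Vcam1, C1qa, Ms4a7, Tgfb3, Il1a, Mmp2, Cd38, Spic and Fn1 in members split into tertiles of Vcam1 per 10000 UMIs (x axis), 1 line per library. Vcam1 runs from 504.1 to 2308.9 CPM in WT and from 463.3 to 2085.0 in 6PGDKO, while C1qa stays between 5376.9 and 6571.2.

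From cell to cell, Malat1, a nuclear RNA, and Apoe, the apolipoprotein E gene, varied most in both libraries, followed by the chemokine gene Ccl4. Variation was measured as the Fano factor, the variance of UMIs over their mean, after thinning to 5000 UMIs, and its median over 1213 genes was 1.37 in WT and 1.40 in 6PGDKO. Malat1 stood at 53.8 and 56.4 and Apoe at 48.8 and 52.5. The chemokine genes Ccl4 (44.5 in WT, 31.8 in 6PGDKO), Cxcl2 (29.6 and 29.3) and Cxcl10 (37.5 and 16.0) were among the 15 genes with the highest ranks summed over both libraries, with Ccl3, Ccl2 and Cxcl9, which ranked 16, 22 and 19 in 6PGDKO alone. The 1213 genes included 12 chemokine genes. Cxcl10, a chemokine induced by interferon, had a UMI in only 17.4% and 27.2% of thinned members, with up to 91 and 37 UMIs in 1 cell. Cd74, the invariant chain of MHC class II, had Fano factors of 21.7 and 24.5. The heat shock genes Hspa1a and Hsp90aa1, the elastase gene Mmp12, the ferritin gene Fth1, the interferon-stimulated gene Rsad2 and Gm42418 completed the 15.

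The genotype comparison asked how members from Pgd fl/fl LysM Cre mice differed from those of Pgd fl/fl mice. Pgd, the targeted gene (chr4:149149991-149166705), was at 109.5 CPM in WT members (369 UMIs) and 31.3 in 6PGDKO members (88 UMIs), a log2 ratio of -1.80 (-2.16 to -1.47). A Pgd UMI was found in 65.5% of WT and 27.0% of 6PGDKO members. Vcam1-low cells were at 100.7 and 21.8 CPM, whereas T cells were at 27.3 and 30.7 (log2 ratio 0.17). Lyz2 (chr10:117277541-117282272), the lysozyme gene into which Cre is inserted, was at 3500.3 CPM in WT (11797 UMIs) and 10.7 in 6PGDKO members (30 UMIs), a log2 ratio of -8.36 (-8.92 to -7.84). T cells held 60 and 6.91 CPM of Lyz2, with a UMI in 7.11% and 5.06% of them. The targeted gene was thus lower in the members of the library labelled 6PGDKO, by less than Lyz2. Within 6PGDKO, Pgd was at 39.0, 31.5 and 20.5 CPM from the lowest to the highest Vcam1 tertile, and within WT at 93.4, 111.3 and 130.2.

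The members were 7.41% of kept WT cells (6.57 to 8.31) and 7.68% of kept 6PGDKO cells (6.72 to 8.73), shares that also depend on the T cells kept and that 1 library each cannot compare between genotypes. The genes that define the members lay within 1.5-fold. Vcam1 had a log2 ratio of -0.15 (-0.22 to -0.08), C1qa of -0.11, C1qb of 0.04, C1qc of -0.13, Ms4a7 of 0.07 and Tgfb3 of -0.34 (-0.62 to -0.06). Over 5764 genes with at least 100 UMIs in the members, 180 (3.12%) were at least 1.5-fold higher in 6PGDKO and 109 (1.89%) at least 1.5-fold lower, the median log2 ratio was 0.05, and 57.6% lay above 0.

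The genes highest in 6PGDKO members encode a mitochondrial enzyme of activated macrophages, a stress cytokine, a detoxifying enzyme and a chemokine. Gdf15 (chr8:70629393-70632470), a cytokine gene induced by stress, was at 114.8 CPM in WT and 478.9 in 6PGDKO members (387 and 1345 UMIs), a log2 ratio of 2.06 (1.90 to 2.23), and at 77.5 and 155.0 in Vcam1-low cells. Acod1 (chr14:103047012-103056573), which makes itaconate, was at 11.3 and 54.1 CPM, a log2 ratio of 2.26 (1.74 to 2.82), with 57.9% of its WT UMIs and 55.9% of its 6PGDKO UMIs in 5 cells, and stood at 26.5 and 15.2 in Vcam1-low cells, the opposite direction. Ccl7 (chr11:82045712-82047525), a chemokine for monocytes, was at 29.1 and 109.0 CPM, a log2 ratio of 1.91 (1.57 to 2.25), and 5 cells held 63.3% of its WT UMIs. Of these 3 genes, Gdf15 and Ccl7 were thus higher in 6PGDKO in both groups of C1q macrophages and Acod1 only in the members, a contrast that was not tested. Mgst1, a glutathione transferase of membranes, was at 12.8 and 49.9 CPM, a log2 ratio of 1.97 (1.46 to 2.49). Gas6, the bridging ligand of Mertk and Axl, was at 16.9 and 47.0 CPM in members and 9.11 and 60.3 in Vcam1-low cells. Fkbp5, a glucocorticoid-induced chaperone gene, was at 31.5 and 81.9 CPM, and Txnip, a regulator of thioredoxin and glucose uptake, at 91.7 and 229.3. Clec4e, a lectin receptor gene, had a log2 ratio of 1.33, Paox, a polyamine oxidase gene, of 1.21, and the histone gene Hist1h4i of 1.16.

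On the low side, beside Pgd and Lyz2, the genes were of mixed kind. Igkc and Ighm, the immunoglobulin kappa and mu constant genes, had log2 ratios of -7.32 and -4.30, which came to -0.65 and -0.64 without the 2 WT cells rich in immunoglobulin UMIs (17506 of 32806 and 9232 of 20686 UMIs). Mfge8 was at 41.5 CPM in WT and 18.5 in 6PGDKO members, a log2 ratio of -1.17 (-1.65 to -0.70), and at 105.2 and 103.2 in Vcam1-low cells. Igf2bp3, an RNA-binding protein gene, was at 25.2 and 11.8 CPM, a log2 ratio of -1.10 (-1.73 to -0.51). G530011O06Rik, Gm43305, Msl3l2 and Gm5547 had log2 ratios of -1.65, -1.60, -1.49 and -1.25.

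**Figure D4:**
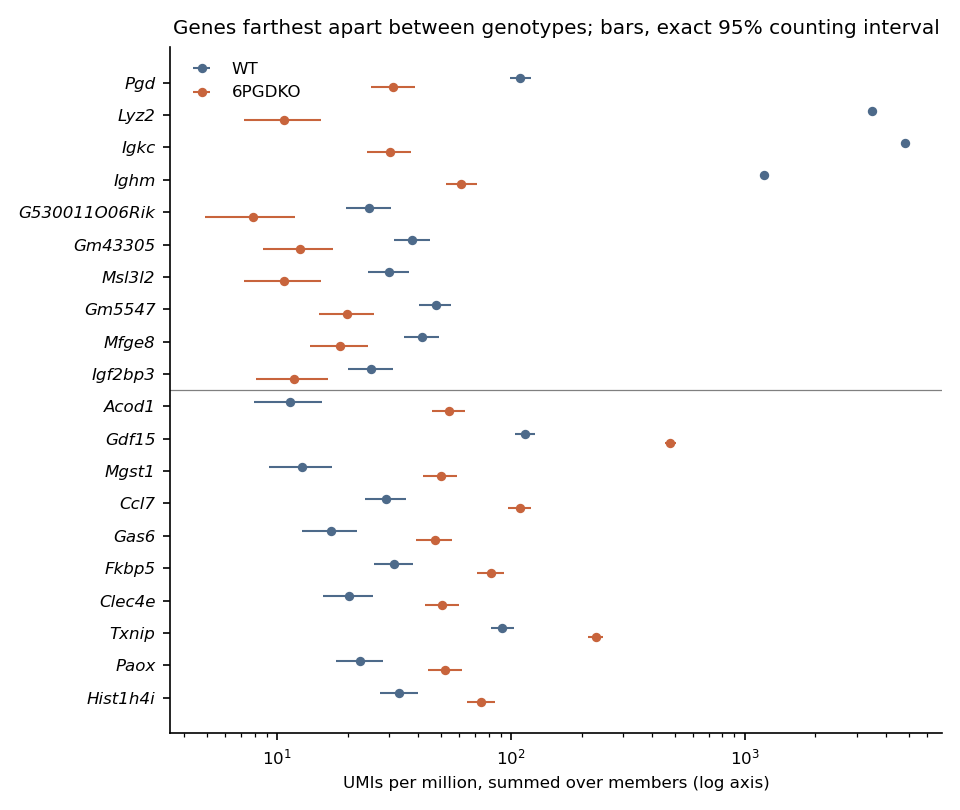
CPM in Vcam1-high C1q macrophages of WT and 6PGDKO (log axis) for the 10 genes highest and 10 lowest by genotype ratio, with exact 95% counting intervals. Lyz2 runs from 3500.3 CPM in WT to 10.7 in 6PGDKO and Pgd from 109.5 to 31.3, while Gdf15 runs from 114.8 to 478.9.

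In the pentose phosphate pathway, Pgd was the 1 gene of 8 measured that lay past 1.5-fold in the members. The list median was 0.33, against 0.05 over all genes tested, and fell to 0.08 with at least 10 Vcam1 UMIs. G6pdx, the enzyme before Pgd in the oxidative branch, was at 24.0 CPM in WT and 32.0 in 6PGDKO members (0.42, -0.03 to 0.87), and Pgls, the lactonase between them, at 154.9 and 147.1 (-0.07, -0.26 to 0.11). In the non-oxidative branch, Taldo1, the transaldolase gene, was at 337.4 and 457.9 CPM (0.44, 0.32 to 0.56), and Tkt, the transketolase gene, at 221.1 and 272.1 (0.30, 0.15 to 0.45). In Vcam1-low cells the ratios of Taldo1 and Tkt were 0.26 and 0.27. Glycolysis and hypoxia genes had a median of 0.17 in the members (0.09 with at least 10 Vcam1 UMIs, 0.34 without cells holding lymphocyte UMIs) with none of 21 past the fold, and 0.33 in Vcam1-low cells.

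Antioxidant genes, among them those of glutathione and thioredoxin, lay mostly above 0 in 6PGDKO members. Of 22 measured, 6 were past 1.5-fold higher and none lower, against 3.12% and 1.89% of all genes tested. Of the 22, 17 lay above 0, against 57.6% of all genes, and the median was 0.22, the same as in Vcam1-low cells. After thinning to 5000 UMIs the median of the members was 0.02. Beside Mgst1, Gsr, which encodes glutathione reductase, an NADPH user, was at 20.8 and 40.6 CPM (0.97, 0.52 to 1.42). Prdx1, a peroxiredoxin gene, was at 595.2 and 1011.0 CPM (0.76, 0.68 to 0.85), and Slc7a11, the cystine transporter gene, at 87.5 and 143.5 (0.71, 0.49 to 0.93). Prdx1 came to 0.52 without the 5 top cells and Slc7a11 to 0.47 with mean per-cell CPM, both under the fold. In Vcam1-low cells Gsr had the same ratio of 0.97, while Prdx1 and Slc7a11 were at 0.23 and 0.05. Gstm1 had a ratio of 1.01, and Gclm, part of the enzyme that starts glutathione synthesis, of 0.74, which became -0.20 without the 5 cells holding most of its UMIs.

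Chemokine genes went both ways. Of 15 measured, 4 were past 1.5-fold higher in 6PGDKO members and 2 lower, against 3.12% and 1.89% of all genes tested. The median was 0.35 (0.11 after thinning) in members and 0.31 in Vcam1-low cells. Ccl2, which recruits monocytes like Ccl7, was at 149.8 and 301.3 CPM (1.01, 0.85 to 1.17), and Ccl3, a ligand of CCR1, at 669.4 and 1285.9 (0.94, 0.87 to 1.02). Cxcl9, a ligand of CXCR3 induced by interferon gamma, was at 1109.1 and 576.5 CPM (-0.94, -1.03 to -0.86), and Pf4 at 210.4 and 137.1 (-0.62). Cxcl10, another ligand of CXCR3, went the other way, at 228.8 and 346.8 CPM (0.60, 0.46 to 0.74), with 58.4% of its WT UMIs in 5 cells. In Vcam1-low cells Ccl2 was at 0.89, Ccl3 at 0.31, Cxcl9 at -0.38, Pf4 at 0.38 and Cxcl10 at 0.05. In members, Ccl2 came to 0.51 with at least 10 Vcam1 UMIs and Cxcl10 to 0.26 with at least 3. Pf4 came to -0.32 after thinning, and each of these values was under the fold. Among inflammatory mediators, 3 of 19 were past the fold higher (Tnf, at 153.4 and 246.1 CPM, Csf1 and Tlr4) and 1 lower (Il18, at 30 and 15.7). Their median was 0.18 (-0.07 after thinning). Csf1 came from 0.64 to 0.22 without the 5 top cells and Tnf from 0.68 to 0.51 with mean per-cell CPM, both under the fold. Interferon-stimulated genes had a median of 0.15 over 29 genes (0.07 with at least 10 Vcam1 UMIs), with Ifit1 at 1.13, Rsad2 at 0.72 and Ifi44 at 0.65 among the 4 higher and Cxcl9 as the 1 lower. For both of these lists, the shares over all genes were again 3.12% higher and 1.89% lower. Rsad2 came to 0.55 with at least 4 Vcam1 UMIs per 10000, under the fold. Ifi44 came to 0.46 without cells holding lymphocyte UMIs, also under it.

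Genes for the uptake of dying cells and lipid were higher in part. Of 16 efferocytosis genes, Mertk, Gas6, Lrp1 and Itgav were past 1.5-fold higher and Mfge8 lower, against 3.12% and 1.89% of all genes tested. Of the 16, 14 lay above 0, against 57.6% of all genes. The median was 0.19 (0.10 with at least 3 Vcam1 UMIs) in members and 0.09 in Vcam1-low cells. Mertk was at 59.3 CPM in WT and 111.1 in 6PGDKO members (0.90, 0.64 to 1.17) but at 38.5 and 42.5 in Vcam1-low cells. Lrp1, an uptake receptor for lipoproteins and dying cells, was at 90.2 and 157.4 CPM (0.80, 0.59 to 1.02), with a ratio of 0.65 in Vcam1-low cells. Of 20 genes of lipid-associated macrophages, 4 (Spp1, Apoc2, Lipa and Gpnmb) were past the fold higher and none was lower, against the same 3.12% and 1.89%. Of the 20, 19 lay above 0, against 57.6% of all genes, with a median of 0.26 (0.47 after thinning). Gpnmb, which the rule capped, had a ratio of 0.62 on 60 and 77 UMIs, and 0.19 with mean per-cell CPM. Without the 5 top cells Apoc2 was at 0.48 and Lipa at 0.53. Without cells holding lymphocyte UMIs Itgav was at 0.55, and each of these values was under the fold. Spp1, the osteopontin gene, was at 123.1 and 217.6 CPM (0.82) in members and 199.3 and 403.3 in Vcam1-low cells, and Lipa, the lysosomal acid lipase gene, at 157.9 and 239.7 (0.60). The scavenger receptor genes Msr1 (0.60) and Scarb1 (0.63) were the 2 of 10 past the fold, against 3.12% of all genes. With at least 10 Vcam1 UMIs they were at 0.31 and 0.47, under the fold. The 10 measured genes of cholesterol and fatty acid synthesis all lay above 0, with a median of 0.34 and none past the fold. Among matrix proteases, Mmp13 was at 217.2 and 424.5 CPM (0.97, 0.83 to 1.10) and Mmp2 at 84.6 and 127.8 (0.60). With Adamdec1 and Adam8 they made 4 of 9 past the fold higher, against 3.12% of all genes. The list median was 0.09 (-0.01 with at least 60 C1q UMIs). Without the deepest 5% of cells Mmp2 was at 0.45 and Adamdec1 at 0.55, and with at least 3 Vcam1 UMIs Adam8 was at 0.42, each under the fold.

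MHC class II genes lay mostly below 0 in the genotype ratio, none of them past 1.5-fold. Cd74 was at 31689.3 CPM in WT and 23874.3 in 6PGDKO members (-0.41, -0.42 to -0.39). H2-Ab1 was at 14819.1 and 10446.0 CPM (-0.50), H2-Aa at 11566.5 and 8431.6 (-0.46) and H2-Eb1 at 12578.6 and 9726.4 (-0.37). Of 11 measured class II genes, 10 lay below 0, with a median of -0.37 in members and -0.16 in Vcam1-low cells, where Cd74 was at -0.57. Class I genes had a median of -0.05 (0.03 after thinning) over 19 genes, none past the fold. Cst3, the gene of the protease inhibitor cystatin C, was at 4019.9 and 2458.5 CPM (-0.71, -0.75 to -0.67) in members and 4663.4 and 3921.1 in Vcam1-low cells.

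Heat shock genes lay below 0 in the genotype ratio of members, whereas their median in Vcam1-low cells lay above 0. All 12 measured lay below 0, whereas 57.6% of all genes tested lay above 0. Of the 12, 3 were past 1.5-fold lower, against 1.89% of all genes tested. The median was -0.32 (-0.21 with at least 10 Vcam1 UMIs), against 0.14 in Vcam1-low cells, a difference that was not tested. Dnajb1, a co-chaperone gene, was at 694.9 and 418.4 CPM (-0.73, -0.83 to -0.63), Hsph1 at 373.9 and 235.0 (-0.67) and Dnaja1 at 817.1 and 537.7 (-0.60). In Vcam1-low cells these genes were at -0.18, -0.17 and 0.13. In members with at least 10 Vcam1 UMIs they were at -0.46, -0.39 and -0.39, all under the fold. Genotype and preparation cannot be told apart with 1 library each. Immediate early genes had a median of -0.11 (0.03 with at least 10 Vcam1 UMIs), with none of 20 past the fold.

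**Figure D5:**
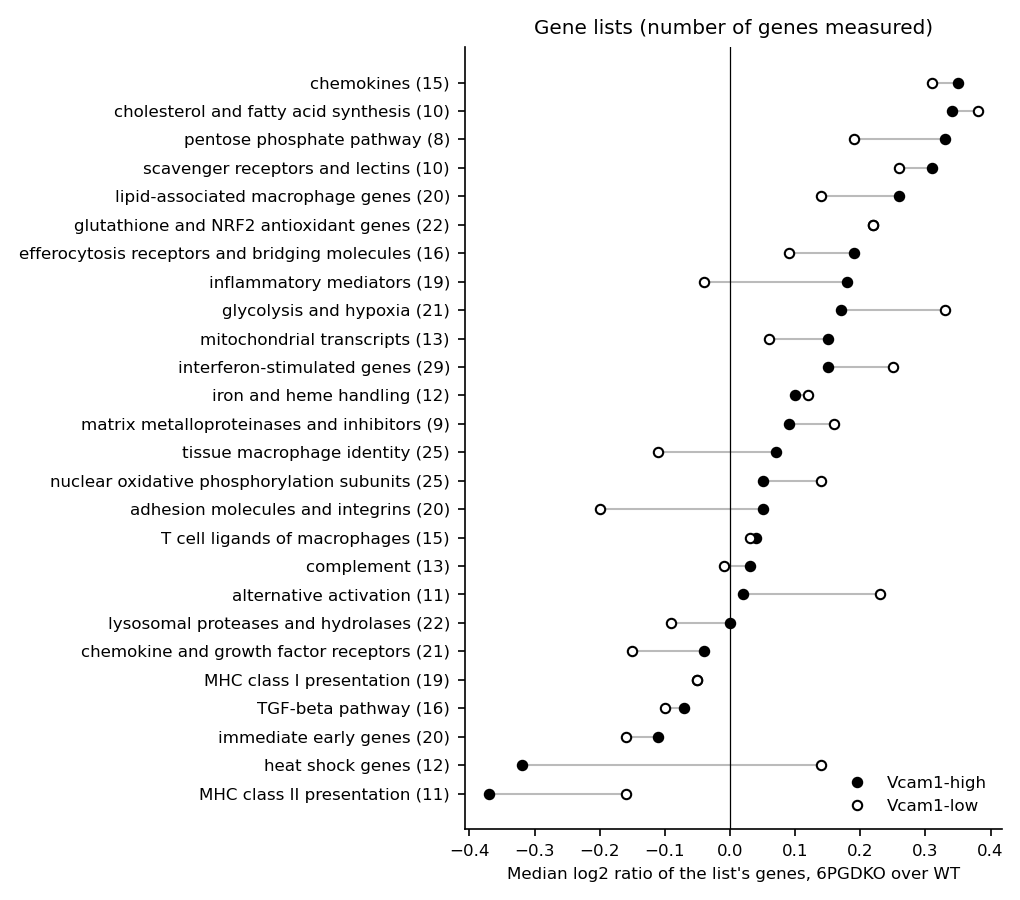
Median log2 ratio of 6PGDKO over WT (x axis) for 26 gene lists with at least 8 measured genes, with filled points for Vcam1-high and open points for Vcam1-low C1q macrophages. MHC class II genes (-0.37) and heat shock genes (-0.32) lie lowest in Vcam1-high cells and chemokines (0.35, or 0.11 after thinning) highest.

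Few genes of the pathways nearest to the defining genes were past the fold between genotypes, beside 3.12% higher and 1.89% lower over all genes. The rule set minimums on C1qa, C1qb, C1qc and Vcam1, which are complement and adhesion genes, so these values are a description. Of 13 complement genes, 1 (C5ar2, -0.62) was past the fold, and the median was 0.03 (-0.02 with mean per-cell CPM). With at least 10 Vcam1 UMIs C5ar2 was at -0.22, under the fold. Of 16 TGF-beta pathway genes none was past the fold, with a median of -0.07, and Nrros, which tethers latent TGF-beta, was at -0.55. Of 20 adhesion genes, 1 (Itgav, 0.67) was past the fold, with a median of 0.05 (-0.06 with at least 10 Vcam1 UMIs). Tissue macrophage identity genes had a median of 0.07 over 25, with Mertk higher and Pf4 lower. Of 11 genes of alternative activation, 6 lay above 0, with a median of 0.02 (0.26 with at least 10 Vcam1 UMIs), and 2 were past the fold lower. These were Mgl2, a lectin gene, at 97.9 and 57.7 CPM (-0.76, -1.04 to -0.49), and Socs3, an inhibitor of cytokine signals, at 452.2 and 279.2 (-0.70, -0.82 to -0.57).

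Markers of other cells also differed between the members of the libraries. Ly6c2 was at 44.8 CPM in WT and 10.7 in 6PGDKO members, with 95.4% of the WT UMIs in 5 cells, and its ratio went from -2.07 to 0.25 without the 5 top cells of each library. Ccr7, a gene of migrating dendritic cells, was at 27.3 and 5.70 CPM, with 81.5% of the WT UMIs in 5 cells, and its ratio of -2.26 came to -3.84 without the 5 top cells and to -0.41 without the deepest 5% of cells. S100a8, a neutrophil gene, was at 21.4 and 12.8 CPM, all of it in 5 cells of each library, and Gzma, of NK and T cells, at 9.79 and 25.3, with 98.6% of the 6PGDKO UMIs in 5 cells. Most UMIs of these genes lay in a few members of at least 1 library, and their part in the other ratios was not tested.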

How the data were processed

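Single-cell RNA was measured in 1 library of WT and 1 of 6PGDKO cells sorted from tumors. The authors deposited raw UMI counts per gene and barcode, with counts of the multiplexing oligonucleotides, and the submitters' processing notes name Cell Ranger 6.1.2, Seurat and mm10. For each library, the UMIs of a gene were added up over the cells of a group and scaled to a common total (CPM). Log2 ratios carry exact conditional 95% intervals, and shares carry Clopper-Pearson intervals (scipy 1.17.1, numpy 2.4.6, pandas 2.3.3, Python 3.11.15). These cover counting error only and treat UMIs as independent, so they are too narrow for genes whose UMIs sit in a few cells. UMIs were 500 or more in each deposited barcode.

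The genotype ratio used genes with at least 100 UMIs over both libraries, and the Vcam1-high over Vcam1-low ratio genes with at least 50 UMIs in each library. A gene was past the fold at a ratio of 1.5 (0.58 on the log2 scale) or more, in both libraries for high over low. A count of 0 was bounded at 3 counts. Genes named were Pgd, Lyz2 and the defining genes; the 10 highest and 10 lowest genotype ratios among genes with a UMI in at least 10% of members and the same sign without the 5 top cells; the 2 farthest genes of each list and any member past the fold; the 15 highest and 10 lowest high over low ratios; and the 15 most variable genes with a thinned mean of at least 0.5 UMI. Other list genes were named after their values were seen. A few list genes are not reported here by name, and the short sets of macrophage and B cell markers leave them out. The members and the 40 gene lists were chosen with earlier results of these data known. Cells were thinned to 5000 UMIs with seed 1.

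Alternatives were another Vcam1, C1q or gene minimum, Vcam1 relative to depth, thinning, mean per-cell CPM, median-of-ratios scaling, leaving out the deepest 5% of cells, cells with lymphocyte UMIs or the 5 top cells per gene, a fold of 2, and a Vcam1-low group of 0 or 1 UMIs. Leaving out cells with 100 or more immunoglobulin UMIs was added after the data had been seen. The summation and ratio steps were tested on simulated data. The study's comparison of single cells as replicates was not repeated.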

Additional observations from a re-analysis of the deposited data

Results flagged for a closer look

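The counts of the multiplexing oligonucleotides, which the comparisons did not use, held a signal from the other genotype in the members. The other genotype's oligonucleotide took 2.98% of these counts in WT members (27602 counts) and 2.86% in 6PGDKO members (19054 counts), whereas the oligonucleotides of neither genotype took 74 and 7 counts. The highest share in 1 member was 23.7% in WT and 17.3% in 6PGDKO, and over all kept cells the shares were 6.46% and 4.51%. The cause was not tested.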

How the results depend on the processing

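Depth limits the genes near the minimum of UMIs, and 1 library per genotype limits every genotype ratio to these pools. With at least 3 Vcam1 UMIs the members were 9.12% of kept WT and 9.29% of kept 6PGDKO cells (63.7% and 57.4% of C1q macrophages), and with at least 10 they were 4.66% and 4.29% (32.5% and 26.5%). Without cells holding lymphocyte UMIs they were 5.75% and 6.15% of kept cells. The 180 genes higher in 6PGDKO became 91 after thinning, 369 with a lower and 81 with a higher gene minimum, and 25 at a fold of 2. The 109 lower genes became 189 without the 5 top cells per gene, 267 and 43 with the lower and higher minimum, and 22 at a fold of 2. The 107 genes higher in Vcam1-high cells became 167 with at least 3 Vcam1 UMIs, 197 with mean per-cell CPM, 225 without the top cells, 163 and 66 with the lower and higher minimum, 18 at a fold of 2, and 199 against cells of 0 or 1 Vcam1 UMIs. The 98 lower genes became 57 after thinning, 168 and 56 with the lower and higher minimum, and 37 at a fold of 2. The cause of each shift was not tested.

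Some ratios changed sign. Without the 5 top cells the genotype ratio of Gclm was -0.20, of Gzma -1.72 and of Ly6c2 0.25, and Lyz1 in WT was 1.10 in Vcam1-high over Vcam1-low cells. With at least 10 Vcam1 UMIs, Gzma was -3.39, Ly6c2 0.05 and Slpi in 6PGDKO -1.87. With at least 4 Vcam1 UMIs per 10000, Ly6c2 was 1.51, Plac8 1.29 and Slpi in WT -3.32. Without cells holding lymphocyte UMIs, Gzma was -1.80, S100a8 0.93, Gzmc in WT 0.15 and Slpi in WT -1.60. Slpi in WT was -0.20 without the deepest 5% of cells and -1.02 without cells of 100 or more immunoglobulin UMIs, an alternative that was chosen after seeing the data. Of 1235 recomputed genotype ratios of 103 genes 15 changed sign, 9 of them in genes past the fold. The other 6 were in C1qb (down to -0.02), Ms4a7 (-0.00), Fcgr2b (0.05), Opa1 (-0.24) and Prps2 (-0.33), whose ratios lay under the fold. A sign change was also seen in 7 of 645 recomputed ratios of Vcam1-high over Vcam1-low cells. The medians of MHC class II, heat shock, chemokine, antioxidant, efferocytosis and lipid-associated genes kept their sign under all 14 settings, although the antioxidant median fell to 0.02 after thinning. No paired analysis was possible because each genotype had 1 library.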

Other observations

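Genes through which macrophages meet T cells were also measured in the Vcam1-high cells. Icosl, a costimulatory ligand gene, was at 47.5 CPM in WT and 40.6 in 6PGDKO members and at 29.4 and 23.3 in Vcam1-low cells. It was the only 1 of 15 measured ligands past 1.5-fold in both libraries, where 1.5% of all genes were past it higher. Cd274, which encodes PD-L1, was at 112.2 and 142.1 CPM in members against 93.6 and 101.4. Between genotypes none of the 15 was past the fold, and Cd80 (-0.43) and Cd40 (-0.40) lay farthest from 0. Cd4, the coreceptor gene of helper T cells, was at 43.0 and 28.8 CPM in members and 17.8 and 14.4 in Vcam1-low cells (log2 differences 1.27, 0.77 to 1.80, and 1.00, 0.43 to 1.59). The T cell receptor gene Trac, in contrast, was at 4.15 and 4.99 CPM in members and 4.14 and 4.44 in Vcam1-low cells, beside 535.0 and 540.5 in T cells. Igf1, a growth factor gene, was at 69.4 and 86.9 CPM in members against 34.4 and 52.9 in Vcam1-low cells.

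The few C1q macrophages set aside for their Gpnmb counts, 7 in WT and 12 in 6PGDKO, carried 1127.5 and 441.1 CPM of Vcam1, so high Vcam1 was found outside the members too. Their Spp1 level was 1393.6 and 2014.4 CPM, against 123.1 and 217.6 in members.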
